A study of Homo sapiens with 6 samples.

Results

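The untreated state of 12Z cells was described from the 3 vehicle libraries of a series of 6. Membership followed the labels alone: cell line 12Z, genotype wild type, treatment DMSO. The 3 other libraries came from cells given frankincense extract, diluted in DMSO, at 70 ug/mL for 12 h, and none of their values is used here. Cells of both groups grew in DMEM/F12 medium with antibiotics and 10% charcoal-stripped fetal bovine serum, a serum depleted of steroid hormones, at 37C under 5% CO2. The time at which vehicle cells were harvested is not stated separately, and nothing in the labels ties each replicate to a culture of its own. The spread between libraries given below may therefore be technical. 12Z is a single immortalized line, so the values describe that line and not a patient population.

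Endometriosis is the growth of endometrium-like tissue, made of glands and stroma, outside the uterus. 12Z was derived from such a lesion of the peritoneum and immortalized with the large T antigen of simian virus 40, whose transcript was not analysed here. It is usually described as epithelial-like: epithelial cells build sheets held together by E-cadherin junctions over keratin filaments, whereas stromal cells rest on vimentin filaments and deposit a collagen-rich matrix. The question addressed was which of these programs, and which receptors, secreted signals and metabolic genes, the RNA of vehicle cells contained. All levels are TPM, transcript abundance per transcript length scaled to a fixed total, after the 37 mitochondrially encoded genes had been dropped and the rest rescaled to 1000000. Since RNA was taken from whole cultures, fewer cells of a type and less RNA per cell cannot be told apart.

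The libraries held 22615150 to 27615196 expected counts, so 3 counts in 1 library were worth 0.109 to 0.133 CPM (counts scaled to a library total of 1000000), a limit for counting error only. Mitochondrially encoded genes took 14 to 14.7% of the counts and 26.6 to 27.1% of the deposited TPM before they were dropped. Library 2 stood apart in nuclear 5.8S ribosomal RNA, at 8679 TPM against 300 and 776 in libraries 1 and 3. Protein-coding genes made up 93.6% of the rescaled TPM in library 2, 95.4% in library 1 and 95.3% in library 3. With the nuclear ribosomal RNA genes also left out, 14766 genes were detected, against 14770 with them. A gene is called detected below where it reached 1 TPM in each of the 3 libraries. By that rule 14770 of 60579 genes were detected (24.4%), and 12115 of 19861 protein-coding genes (61%). The 61% is the background for every count of detected list members below. A list near it is not set apart by detection. The median level was 6.32 TPM over all protein-coding genes and 24.1 TPM over the detected ones.

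The 6 marker genes taken to describe 12Z were all detected, but at levels far apart. VIM, the vimentin filament gene (ENSG00000026025, chr10:17228259-17237593, plus strand, GRCh38), stood at 2782, 2766 and 2855 TPM in libraries 1 to 3, a mean of 2801 ± 47.6 (SD, n = 3). KRT18, a simple epithelial keratin (ENSG00000111057, chr12:52948871-52952901, plus strand), was at 904 ± 9.66, and LUM, the collagen-binding stromal proteoglycan lumican (ENSG00000139329, chr12:91102629-91111831, minus strand), was at 773 ± 24.6 (both SD, n = 3). The filament genes VIM and KRT18 and the matrix gene LUM were thus all abundant in the same cultures. CXCL12, a chemokine made by stromal cells (ENSG00000107562, chr10:44370165-44386493, minus strand), was at 153 ± 3.13 TPM. THY1, a surface glycoprotein of fibroblasts (ENSG00000154096, chr11:119417378-119424985, minus strand), was at 134 ± 5.47. KRT7, the keratin that usually marks glandular and Müllerian epithelium (ENSG00000135480, chr12:52232520-52252186, plus strand), was lower than all of these at 8.11, 7.87 and 7.97 TPM. It rested on 52.79, 55.96 and 65.95 expected counts, so the SD given next can understate its counting error. Its mean of 7.99 ± 0.122 (SD, n = 3) put it at rank 9434 among protein-coding genes, against rank 25 for VIM, 142 for KRT18 and 51 for the collagen gene COL1A1. For KRT7, 3 counts were worth 0.363 to 0.462 TPM, against 0.147 to 0.183 TPM for KRT18. The level and rank of KRT7 therefore depend on the short effective transcript length used for it. The ranges of the 6 genes over libraries did not overlap, so their order was the same in every library.

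The data went only in part with the epithelial label. The simple epithelial keratins KRT8, KRT18 and KRT19 were abundant, while most junction proteins, regulators and glandular markers that go with them were low or had no count. Of 6 keratins of simple epithelium 4 were detected and 3 exceeded 100 TPM. KRT20 had 1 count, in library 3, and KRT23 had none. KRT8, the usual filament partner of KRT18, was at 1050, 1069 and 1047 TPM, a mean of 1055 ± 11.8 (SD, n = 3). KRT19, the third simple keratin in order, was at 205 ± 8.27 TPM, its range clear of both neighbours. Keratin filaments are built from equal numbers of type I and type II chains. Summed over the 14 type II and 15 type I keratin genes of the lists, the levels were 1072 ± 11 and 1157 ± 16.7 TPM, a ratio of 0.926 ± 0.00948 (SD, n = 3). Keratins of stratified epithelium and hair were mostly below detection: 3 of 23 were detected, KRT10 at 44.8 ± 4.21, KRT80 at 7.95 ± 0.744 and KRT17 at 1.54 ± 0.361 TPM. The basal keratin gene KRT5 had no count, which allows up to 0.229 to 0.283 TPM depending on the library, and its partner KRT14 had 1, 2 and 1 counts.

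Of 32 genes of epithelial junctions and the epithelial surface, 17 were detected, a share of 53.1% against 61% of all protein-coding genes, and their median was 1.96 TPM. CDH1, which encodes E-cadherin (chr16:68737225-68835548, plus strand), had 5, 6 and 3 expected counts and stood at 0.0959, 0.315 and 0.136 TPM. All 3 libraries were thus below detection for the defining epithelial cadherin. CDH2, the N-cadherin of mesenchymal cells, was at 78.9, 72.7 and 83.8 TPM. The ratio of CDH2 to CDH1 was between 230 and 822, a wide range because so few counts lay behind CDH1. EPCAM, an epithelial adhesion molecule, was just detected at 1.88, 1.26 and 1.47 TPM, and the tight junction claudin CLDN4 was at 3.01 ± 0.21. Among the higher members were the scaffold gene TJP1 (30.8 ± 1.17 TPM), the mucin MUC1 (44.6 ± 3.75), the desmosomal cadherin DSG2 (33.4 ± 3.01) and the sorting adaptor AP1M2 (20.3 ± 5.63; all SD, n = 3). DSP, the desmoplakin that ties desmosomes to keratin filaments, had 1, 1 and 0 counts.

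The factors that set the epithelial program were sparser. Of 13 transcription and splicing regulators 3 were detected and 5 had no count in any library. KLF5, a zinc finger factor of epithelial progenitors, was at 14.4 ± 2.11 TPM, ELF3, an epithelium-specific ETS factor, at 7.35 ± 0.537, and GRHL1 at 2.39 ± 0.362 (all SD, n = 3). GRHL2, an activator of CDH1, and ESRP1, a splicing factor of epithelial cells, had no count, which allows up to 0.157 and 0.106 TPM in the library with the weakest limit. Of 19 markers of endometrial epithelium 3 were detected and 9 had no count. PAX8, a factor of Müllerian epithelium, was at 3.50, 4.05 and 4.46 TPM, the secreted lipocalin LCN2 at 2.13 ± 0.615 and SOX9 at 1.52 ± 0.0618. SOX17, a factor of endometrial glands, MUC16, the mucin behind the CA-125 antigen, and FOXA2, a gland factor, had no count in any library.

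Markers of endometrial stroma were detected more fully than those of endometrial epithelium. Of 22 markers of endometrial stroma 20 were detected (90.9%) and 10 exceeded 100 TPM, with a list median of 80.7 TPM. Among all protein-coding genes 61% were detected and 8.83% reached a mean of 100 TPM. NT5E, the ectonucleotidase CD73, was at 79.0, 72.7 and 85.3 TPM, and MME, the peptidase CD10 used by pathologists to stain endometrial stroma, was at 29.7, 32.9 and 27.8. Their ranges did not overlap, so NT5E was the higher in every library. Of the platelet-derived growth factor receptors, PDGFRB stood at 34.5 ± 3.33 TPM and PDGFRA at 3.77 ± 0.212, a ratio of 9.13 ± 0.50 (SD, n = 3). PDGFRB and MME overlapped over libraries. HAND2, the progesterone-responsive factor of endometrial stroma, was at 13 ± 1.08 TPM. The 2 members not detected were SUSD2, at a mean of 0.269 TPM, and TCF21, with no count.

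Of 19 mesenchymal regulators and cadherins 16 were detected. TWIST2 was at 82.4 ± 1.21 TPM, TWIST1 at 30.6 ± 1.59, ZEB1 at 13.3 ± 0.474 and SNAI2 at 11.1 ± 1.07 (all SD, n = 3); all 4 encode factors that repress epithelial genes, CDH1 among them. TWIST2 exceeded TWIST1 in every library. ZEB1 exceeded SNAI2 in every library. CDH11, a cadherin of fibroblasts, did not accompany CDH2: it had 14, 14 and 15 counts and stood at 0.987, 0.178 and 0.259 TPM. Of 15 decidualization markers, which stromal cells gain under progesterone, 5 were detected. The hormone gene PRL had 2, 3 and 2 counts and IGFBP1 had 1 count in library 3 alone, whereas CEBPB, an early factor of that program with roles in many cells, was at 151 ± 5.7 TPM.

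Markers of other cell types were examined as whole lists. None of 14 endothelial genes was detected, and their summed level was 3.15 to 4.18 TPM: CDH5 had no count and VWF had 4, 3 and 3. Of 18 immune genes 4 were detected, with a sum of 49.9 to 56.3 TPM, of which the lysosomal protein CD68, not limited to macrophages, made up 74.7%. The 3 others were CD74, the MHC class II invariant chain, at 6.67 ± 0.657 TPM, the lipopolysaccharide coreceptor CD14 of monocytes at 3.78, 2.66 and 3.92, and CD4, of helper T cells and monocytes, at 2.54, 1.29 and 2.36. The pan-leukocyte gene PTPRC was at 0.302, 0.206 and 0.191 TPM and the T cell gene CD3E had no count. The highest endothelial genes were ESAM, at 0.768, 1.28 and 1.32 TPM, and PLVAP, at 0.877, 1.26 and 0.668. Endothelial markers were thus all below detection, while the immune list held both detected markers and markers near 0. Of 11 mesothelial genes 3 were detected, summing to 63.1 to 65.6 TPM: MSLN at 39.0 ± 2.32, BNC1 at 14.4 ± 0.819 and WT1 at 7.73 ± 0.399. CALB2, the calretinin gene that is the common stain for mesothelium, had 3, 2 and 1 counts, and UPK3B was at 1.36, 0.754 and 0.518 TPM. Of 8 adipocyte genes 3 were detected, of which PPARG was highest at 8.56 ± 0.474 TPM, and ADIPOQ had no count. Of 13 neural and glial genes 6 were detected, led by the tubulin TUBB3 at 66.2 ± 4.06 TPM, while the glial factor SOX10 had 1 count in all.

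Contractile genes were split. Of 18 genes of smooth muscle and contraction 12 were detected and 7 exceeded 100 TPM. Those high were genes that fibroblasts and many cultured cells share: the tropomyosins TPM2 (660 ± 23 TPM), TPM4 (550 ± 17.2) and TPM1 (398 ± 13.6), and the light chain MYL9 (293 ± 6.22; all SD, n = 3). TAGLN, an actin-binding protein of smooth muscle and myofibroblasts, was at 99.1 ± 4.36 and ACTA2, the smooth muscle actin, at 50.9 ± 0.758. The light chain kinase MYLK was at 70.7 ± 4.06, smoothelin (SMTN) at 32.1, 30.5 and 27.1 and the leiomodin LMOD1 at 2.48, 2.63 and 2.67 TPM. The smooth muscle myosin MYH11, at 0.219, 0.192 and 0.531 TPM, and the desmin gene DES, at 1, 0.631 and 0.708, were below detection.

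**Figure D1:**
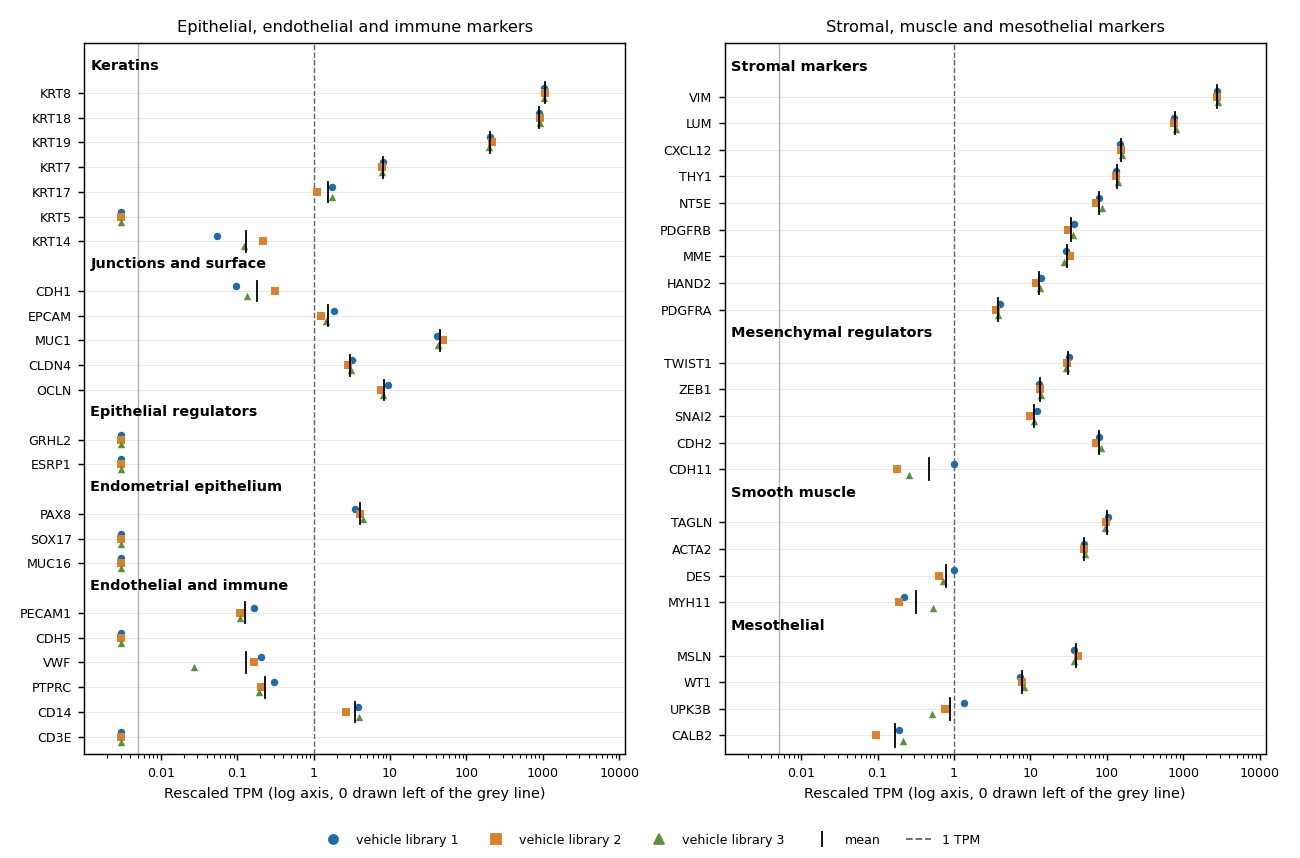
Rescaled TPM on a log axis for markers of cell identity, 1 point per vehicle library with a bar at the mean; values of 0 are drawn left of the grey line and the dashed line is the detection level of 1 TPM. KRT8 and KRT18 lie beside VIM at the high end, whereas CDH1, GRHL2, ESRP1, SOX17 and the endothelial and T cell markers lie below 1 TPM.

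Start site sequences are shown for 4 genes with high levels or central roles here, chosen to show the forms that the stretch before the start takes in genes of the matrix, of secretion and of keratin filaments. They are the 100 bases before the RefSeq transcript start (build GRCh38.p14), read 5′ to 3′ on the gene's own strand, which is minus for POSTN, CXCL12 and KRT8 and plus for CXCL8. Capitals mark the letters TATAAA in POSTN (chr13:37598769-37598868) and CXCL8 (chr4:73740469-73740568), and each CG pair in CXCL12 (chr10:44385098-44385197) and KRT8 (chr12:52926470-52926569).
POSTN: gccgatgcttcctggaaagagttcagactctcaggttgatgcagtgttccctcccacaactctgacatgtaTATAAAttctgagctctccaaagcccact
CXCL8: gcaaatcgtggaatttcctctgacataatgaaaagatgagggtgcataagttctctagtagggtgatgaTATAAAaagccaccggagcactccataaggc
CXCL12: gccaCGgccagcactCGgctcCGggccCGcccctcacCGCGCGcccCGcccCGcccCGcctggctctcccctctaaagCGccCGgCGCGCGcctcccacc
KRT8: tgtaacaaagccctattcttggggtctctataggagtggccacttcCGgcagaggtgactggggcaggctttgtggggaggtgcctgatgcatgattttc

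TATAAA begins 29 bases before the start of POSTN and 31 before that of CXCL8. CXCL12, whose level of 153 TPM was near the 168 of POSTN and the 117 of CXCL8, holds no TATAAA but 15 CG pairs, and KRT8 holds 1 pair. The KRT8 start shown lies inside the annotated gene span (chr12:52897187-52949954), away from its 5′ end. The CXCL12 start shown also lies inside its gene span (chr10:44370165-44386493). Whether the KRT8 and CXCL12 RNA counted here began at those starts was not tested. Of 12111 detected protein-coding genes, counted by symbol, 9862 (81.4%) had an entry in the RefSeq promoter table. Where a gene had several starts, a match before any of them counted, and CG pairs were averaged over them. By that rule TATAAA on the gene's strand stood before a start of 2.55% of these genes. On the other strand it stood in 1.32%, and 26 genes held both. By level the share on the gene's strand was 1.74% from 10 to 100 TPM, 3.47% from 100 to 1000 TPM and 7.55% (8 of 106 genes) at 1000 TPM or more, and on the other strand 1.14%, 1.03% and 6.6% (7 of 106 genes) in the same classes. The median number of CG pairs was 10, 10 and 9. Genes below 10 TPM, and protein-coding genes as a whole, had entries for under 80% of members, so the check is void for them. A match is a description of letters and not a shown binding site. KRT18, LUM, COL1A1 and CDH1 had no entry.

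Extracellular matrix is the scaffold of collagens, glycoproteins and proteoglycans that stromal cells deposit, and basement membrane is its sheet-like form under epithelium. Vehicle cells held RNA for both. Of 31 collagen chain genes 21 were detected and 11 exceeded 100 TPM, the level that 8.83% of protein-coding genes reached. COL1A1, the alpha-1 chain of fibrillar collagen I (ENSG00000108821, chr17:50183289-50201632, minus strand), was at 1989, 1998 and 1942 TPM, rank 51 among protein-coding genes. COL1A2, the chain that joins it in a trimer with fewer copies, was at 231, 218 and 234. Their ratio was 8.69 ± 0.441 (SD, n = 3), with 8.30 as the lowest library and 9.17 as the highest. The fibrillar COL3A1 followed at 726 ± 23.4 TPM. The basement membrane chains COL4A2 and COL4A1 were at 665 ± 3.19 and 402 ± 19.7, a ratio of 1.66 ± 0.0892.

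Collagen VI, a beaded filament of the pericellular space, was uneven in its chains. COL6A1 was at 432, 428 and 428 TPM and COL6A2 at 346, 356 and 346, a ratio of 1.23 ± 0.0247 (SD, n = 3). COL6A3, the large chain of the usual heterotrimer, was at 1.19, 0.699 and 0.804 TPM on 80 to 91 counts. COL6A1 was thus 363 to 613 times the level of COL6A3 in every library. The genes that hydroxylate, fold and crosslink collagen were complete: 17 of 17 were detected, with a median of 101 TPM. P4HB, the beta subunit of prolyl hydroxylase, was at 820 ± 5.81, SERPINH1, the collagen chaperone HSP47, at 792 ± 4.38, the crosslinking oxidase LOXL2 at 177 ± 6.37 and its relative LOX at 56.6 ± 3.85 (all SD, n = 3).

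Laminins are trimers of 1 alpha, 1 beta and 1 gamma chain that organize basement membrane, where 17 of 18 listed genes were detected. The beta chains LAMB1 (419 ± 10.7 TPM) and LAMB2 (384 ± 6.16) led, followed by the alpha chains LAMA5 (312 ± 18.1), LAMA4 (105 ± 5.59) and LAMA1 (63.6 ± 2.62; all SD, n = 3). The gamma chain LAMC1 was at 95.5, 83.9 and 95.9 TPM, so LAMB1 was 4.58 ± 0.283 times as high. LAMB3, a chain of the laminin of epithelial hemidesmosomes, was lower at 21.1 ± 1.32. Of 25 proteoglycans 14 were detected (56%), against 61% of all protein-coding genes. After LUM came the heparan sulfate proteoglycan AGRN (224 ± 8.49), then the small leucine-rich DCN (167 ± 7.68) and BGN (143 ± 3.76), and LUM was 4.62 ± 0.114 times DCN. VCAN, the large proteoglycan of provisional matrix, had 3, 2 and 7.02 expected counts, a mean of 0.0821 TPM.

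Of 38 matrix glycoproteins 28 were detected and 12 exceeded 100 TPM. SPARC, a collagen-binding protein, was at 1705, 1644 and 1821 TPM, above every other member in each library. TGFBI was at 754 ± 29.2, the fibronectin FN1 at 473 ± 26.2, CCN1 at 440 ± 20.8, EFEMP1 at 342 ± 16.2, THBS2 at 174 ± 13.6, POSTN at 168 ± 8.04 and TNC at 41.9 ± 3.7 (all SD, n = 3). FN1 and CCN1 overlapped over libraries. The elastic fibre genes divided: the microfibril fibrillin FBN1 had a mean of 44.3 TPM, whereas the elastin gene ELN had 3, 0 and 8.26 expected counts and the calcification inhibitor MGP had none.

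The 2 highest genes of the list of proteases and their inhibitors were inhibitors. Of 35 genes on both sides 26 were detected. SERPINE2, a serpin that blocks thrombin and plasminogen activators, was at 1954, 1825 and 1998 TPM, TIMP1 at 717, 689 and 722 and TIMP2 at 400 ± 14.9 (SD, n = 3). Of the metalloproteinases, MMP2 stood at 140, 126 and 145 TPM and MMP14, the membrane enzyme that activates it, at 56.5 ± 1.76. TIMP1 was 5.18 ± 0.249 times MMP2, and PLAU, the urokinase, was at 39.1 ± 2.02 TPM. The stromelysin MMP3 and the gelatinase MMP9 were at means of 0.255 and 0.109 TPM, and the collagenase MMP1 at 1.48 ± 0.326. TIMP3, the matrix-bound inhibitor, had 2, 0 and 1 counts, unlike TIMP1 and TIMP2. Lysosomal cathepsin B (CTSB) was at 408 ± 24.3 and the cysteine protease inhibitor CST3 at 321 ± 13.

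**Figure D2:**
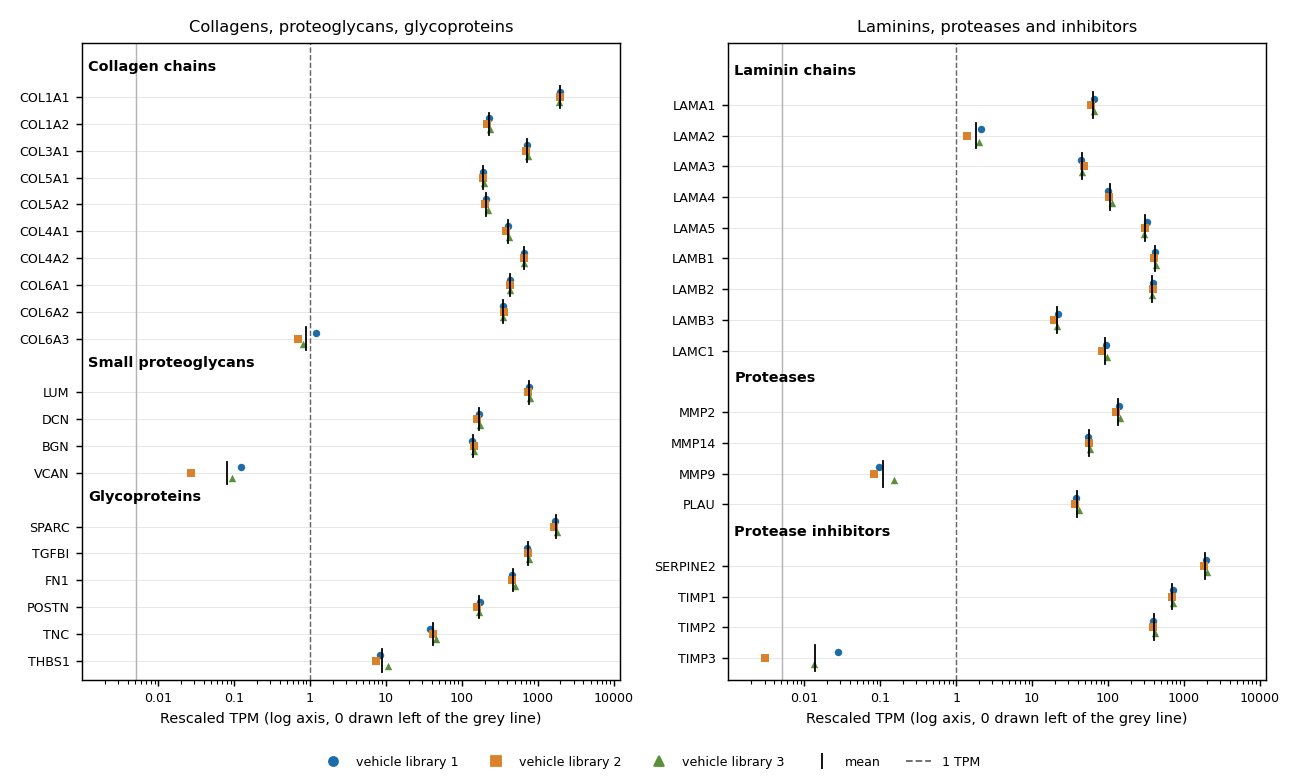
Rescaled TPM on a log axis for matrix genes, 1 point per vehicle library with a bar at the mean; the dashed line is 1 TPM and 0 is drawn left of the grey line. Most genes lie above 10 TPM, and COL6A3, VCAN, MMP9 and TIMP3 lie at or below about 1 TPM, apart from their partners.

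Integrins, receptors that bind cells to this matrix, were detected for 17 of 25 genes (68%), against 61% of all protein-coding genes. ITGB1, the beta-1 chain that pairs with most alpha chains, was at 407, 387 and 439 TPM, but this value is uncertain because its pseudogene, assigned 133 TPM, shares sequence with it. ITGA3, a laminin receptor chain, was at 265 ± 8.34, ITGA5, the fibronectin receptor chain, at 186 ± 7.49 and ITGAV at 42.4 ± 3.35 (all SD, n = 3). ITGB4, the hemidesmosome chain, was at 23.9, 35.5 and 29.6 TPM, a wider spread than the others named.

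Steroid hormones drive endometrial growth and differentiation through nuclear receptors that act as transcription factors. Vehicle cells held little RNA for the estrogen and progesterone receptors, whereas the glucocorticoid receptor was detected. NR3C1, the glucocorticoid receptor, was at 19.2, 18.5 and 20.3 TPM. ESR1, estrogen receptor alpha, was at 0.0959, 0.192 and 0.191 TPM, ESR2, estrogen receptor beta, at 0.206, 0.247 and 0.286, and PGR, the progesterone receptor, at 0.164, 0.219 and 0.259. These 3 were below detection in every library. ESR2 was above ESR1 in each, on 13 to 16.4 and 7 to 17 expected counts, and PGR overlapped both. The membrane-associated progesterone-binding proteins PGRMC1 and PGRMC2 were at 108 ± 1.15 and 84.4 ± 3.14 TPM and the orphan receptor ESRRA at 11.4 ± 2.19 (all SD, n = 3). In all, 5 of 12 genes of the steroid receptor list were detected.

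Of 39 other nuclear receptors 24 were detected, a share close to that of all protein-coding genes. NR2F2, the orphan receptor COUP-TFII of uterine stroma, led at 120, 115 and 120 TPM. NR2C1 (69.3 ± 2.53), the retinoid X receptor RXRB (45 ± 2.16), the oxysterol receptor NR1H2 (42.3 ± 0.62) and the retinoic acid receptor RARG (37.8 ± 0.808) followed, in that order in their means, and of these neighbours only RXRB and NR1H2 overlapped over libraries. NR1H4, the bile acid receptor FXR of liver and gut, was at 36.0, 35.1 and 35.5 TPM. NR5A1, the factor SF-1 that activates steroidogenic genes, had 2 counts in library 1 and none elsewhere.

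Receptor tyrosine kinases were detected for 25 of 50 genes (50%, against 61% of all protein-coding genes), and 10 had no count in any library. AXL, the receptor of GAS6, was highest at 104, 103 and 108 TPM. The pseudokinase PTK7 was at 94.5 ± 6.17, FGFR1 at 76.0 ± 1.52, the pseudokinase RYK at 67.4 ± 1.76 and the ephrin receptor EPHA2 at 66.6 ± 2.91 (all SD, n = 3); RYK and EPHA2 overlapped. EGFR, the epidermal growth factor receptor, at 35.4 ± 0.457, and PDGFRB overlapped too, and MET, the receptor of hepatocyte growth factor, was at 5.32 ± 0.266. FGFR2, which epithelial cells use to receive FGF7, and KDR, the main receptor of VEGFA, had no count, while FGF7 and VEGFA themselves were at 49.9 ± 6.57 and 98 ± 3.9 TPM. Of 14 receptors of the TGF-beta family 10 were detected (71.4%), led by the coreceptor ENG at 82.4 ± 2.39, with TGFBR2 at 19.9 ± 1.34.

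Receptors for inflammatory signals were detected for 25 of 41 genes (61.0%), against 61% of all protein-coding genes. TNFRSF1A, the main tumour necrosis factor receptor, was at 179, 184 and 184 TPM, and TNFRSF12A at 182 ± 4.01 overlapped it. IFNGR2 was at 120 ± 5.98, the death receptor TNFRSF10B at 84.1 ± 2.14 and IL6ST, the shared signal chain of interleukin 6 family receptors, at 31.9 ± 2.36 (all SD, n = 3). None of the listed chemokine receptors was detected. CXCR4 and ACKR3, the receptors of CXCL12, CXCR1 and the CCL2 receptor CCR2 had no count, and CXCR2, a receptor of CXCL8, had 1 count in library 2. For CXCR4 a count of 0 allows up to 0.119 to 0.147 TPM depending on the library. TLR4, the lipopolysaccharide receptor, also had no count. Of 37 receptors for lipid mediators and peptide hormones 22 were detected (59.5%), led by BDKRB1, the inducible bradykinin receptor, at 109, 99.8 and 101 TPM. The oxytocin receptor OXTR was at 14.4 ± 1.15, and the prostaglandin E2 receptors PTGER2 and PTGER4 at 2.14 ± 0.654 and 0.451 ± 0.227.

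Some secreted signals, such as CXCL12 and CCL2, were detected although the receptors named for them above were not. Of 39 chemokines and cytokines 25 were detected (64.1%), a share near the 61% of all protein-coding genes. MIF, a macrophage cytokine that most cells make, was at 1168, 1256 and 1109 TPM and made up 58.9% of the list's sum. CXCL12 followed at 149, 153 and 156, clear of CSF1, the macrophage growth factor, at 122 ± 3.51. CSF1 and the neutrophil chemokine CXCL8 (122, 110 and 118 TPM) overlapped. CXCL1, at 81.9 ± 2.31, and CXCL6, at 61.7 ± 1.1 (both SD, n = 3), also act on neutrophils. The monocyte chemokine CCL2 was at 65.0, 74.4 and 68.4 TPM, IL6 at 14.8, 9.23 and 14.6 and IL1B at 8.11, 9.97 and 10.7. IL6 and IL1B overlapped, since IL6 was lowest in library 2. TNF had 1 count in library 1, none in library 2 and 1 in library 3.

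Of 67 growth factors, binding proteins and antagonists 40 were detected (59.7%, near the 61% of all protein-coding genes) and 10 exceeded 100 TPM. The heparin-binding midkine MDK was at 496 ± 25.5 TPM and IGFBP6, which binds insulin-like growth factors, at 459 ± 25.6 (both SD, n = 3), the ranges overlapping. FSTL1 was at 318 ± 23.1, IGFBP3 at 258 ± 24 and IGFBP4 at 135 ± 5.23. The growth factors that these IGF-binding proteins hold were scarce: IGF1 had no count and IGF2 was at 0.0411, 0.096 and 0.0272 TPM, while their receptor IGF1R was at 15.9 ± 0.326. TGFB1 was at 70.3 ± 2.42 and INHBA, the activin A subunit, at 4.99 ± 0.397. HGF, a stromal ligand of MET, had 2, 0 and 2 counts. Of 23 complement and coagulation genes 20 were detected, with the chaperone clusterin CLU at 440 ± 13.6, the central component C3 at 417 ± 17, C1R at 403 ± 8.19 and C1S at 317 ± 4.87. CLU overlapped C3, and C3 overlapped C1R. F3, the tissue factor that starts clotting, was at 36.6 ± 3.87.

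**Figure D3:**
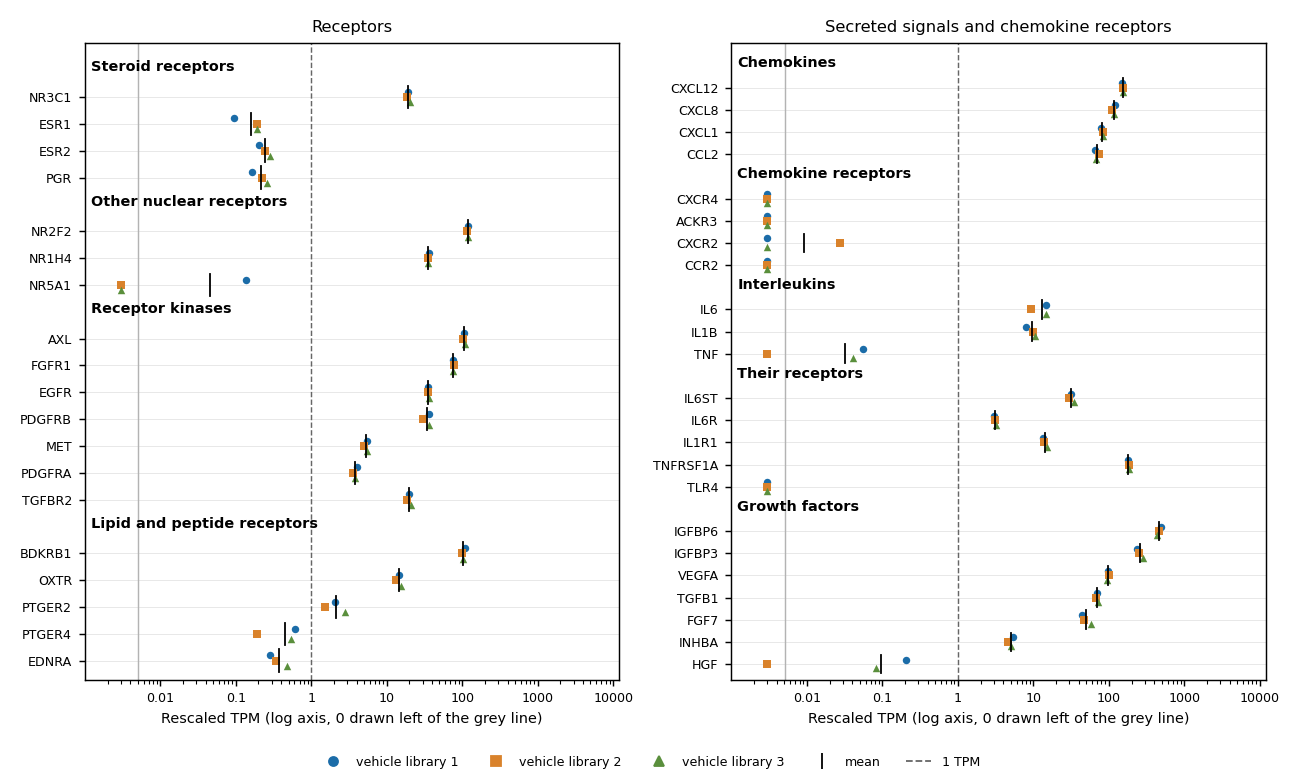
Rescaled TPM on a log axis for receptors (left) and for secreted signals with the receptors of some of them (right), 1 point per vehicle library with a bar at the mean; the dashed line is 1 TPM and 0 is drawn left of the grey line. NR3C1 lies near 20 TPM while ESR1, ESR2 and PGR lie below 0.3 TPM, and the chemokines lie at 65 TPM or more above chemokine receptors at or near 0.

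Endometriotic lesions are known for local production of estrogen and prostaglandin E2. In vehicle cells the aromatase gene and the genes of both cyclooxygenases were low. Of 37 steroid genes 23 were detected (62.2%), near the 61% of all protein-coding genes. Among them were HSD17B10 (135 ± 2.07 TPM) and HSD17B4 (127 ± 2.38 TPM, both SD, n = 3), enzymes that inactivate steroids or act in other pathways too. STAR, which brings cholesterol into mitochondria, was at 3.44, 2.72 and 3.28 TPM. CYP19A1, the aromatase that makes estrogen, had 1, 1 and 0 counts. HSD17B1, which makes estradiol from estrone, was at 3.01 ± 0.761, and HSD17B2, which does the reverse, had no count. Of 18 prostaglandin and leukotriene genes 10 were detected (55.6%). PTGS2, the inducible cyclooxygenase COX-2, was at 1.75, 1.55 and 1.69 TPM and PTGS1, the constitutive one, had 2, 3 and 0 counts. The downstream inducible synthase PTGES was higher, at 31.9 ± 1.07, and PTGES3, a cochaperone with synthase activity, was at 344 ± 15.5.

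Most genes of central carbon metabolism were detected. Of 37 genes of glycolysis and glucose transport 30 were detected, and their sum of 17348 to 18023 TPM was 1.76% of the RNA. GAPDH was at 7244, 7383 and 7540 TPM, followed by ALDOA (1828 ± 41), ENO1 (1777 ± 54), TPI1 (1462 ± 19.2) and PKM (1426 ± 43; all SD, n = 3). ALDOA and ENO1 overlapped. ENO1 was 6.75 ± 0.152 times as high as ENO2, the neuronal enolase. LDHA and LDHB, which favour lactate and pyruvate respectively, were closer, at 832 ± 41.8 and 650 ± 26.1 TPM, and LDHA was the higher in every library. The glucose transporter SLC2A1 was at 55.6 ± 1.44 and the hexokinase HK2 at 26.9 ± 1.17.

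Of 8 pentose phosphate genes 7 were detected, with TKT, the transketolase, at 936 ± 26.7 TPM and TALDO1, the transaldolase, at 296 ± 6.49 (both SD, n = 3). Of 28 genes of the citric acid cycle and its supply 27 were detected. MDH1 was at 402 ± 3.62, PDHA1 at 339 ± 9.98 and the citrate synthase CS at 115 ± 3 (all SD, n = 3). SDHA, at 195 ± 8.43, is uncertain, since 109 TPM were assigned to its 4 pseudogenes. The member not detected was ME1, the cytosolic malic enzyme, with 5, 2 and 6 counts, while the mitochondrial malic enzymes ME2 and ME3 were at 31.8 ± 0.583 and 29.7 ± 2.75 TPM and overlapped. Of 21 genes of glutamine, serine and one-carbon metabolism 20 were detected. TYMS, the thymidylate synthase, was at 353 ± 4.43, PHGDH, the first enzyme of serine synthesis, at 351 ± 10.6 and PSAT1 at 220 ± 2.18.

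All 24 genes of cholesterol synthesis and uptake were detected, but 1 of them exceeded 100 TPM: FDPS, which makes farnesyl diphosphate, at 293 ± 10.8 (SD, n = 3). FDFT1, which makes squalene, was at 70.7 ± 3.3 TPM. Of 32 genes of fatty acid metabolism 28 were detected. ACADVL, the first dehydrogenase of long-chain oxidation, was at 794 ± 23.7, the desaturase SCD at 117 ± 7.26 and the synthase FASN at 60.2 ± 2.56. Of the carnitine transferases that admit fatty acids to mitochondria, CPT1B, the muscle form, was at 84.9, 88.8 and 80.3 TPM and CPT1A, the liver form, at 11.7, 10.5 and 10.8. CPT1B was 7.72 ± 0.637 times CPT1A, a value that is uncertain because CPT1B overlaps a read-through transcript with its neighbour CHKB. The fatty acid binding gene FABP4 and the lipase LPL had no count.

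Iron storage and redox genes had the highest summed level of the metabolic lists. Of 26 genes 23 were detected and 16 exceeded 100 TPM, and together they made up 2.68% of the RNA. The ferritin chains FTL and FTH1 were at 8927 ± 277 and 7550 ± 188 TPM, the 2 highest members. NQO1, a quinone reductase and classical target of NRF2, was at 2375, 2328 and 2346, and TXN and PRDX1, of the thioredoxin system, were at 1614 ± 14.5 and 1613 ± 14.1 (all SD, n = 3), overlapping. Mitochondrial SOD2 was at 349 ± 25.8.

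**Figure D4:**
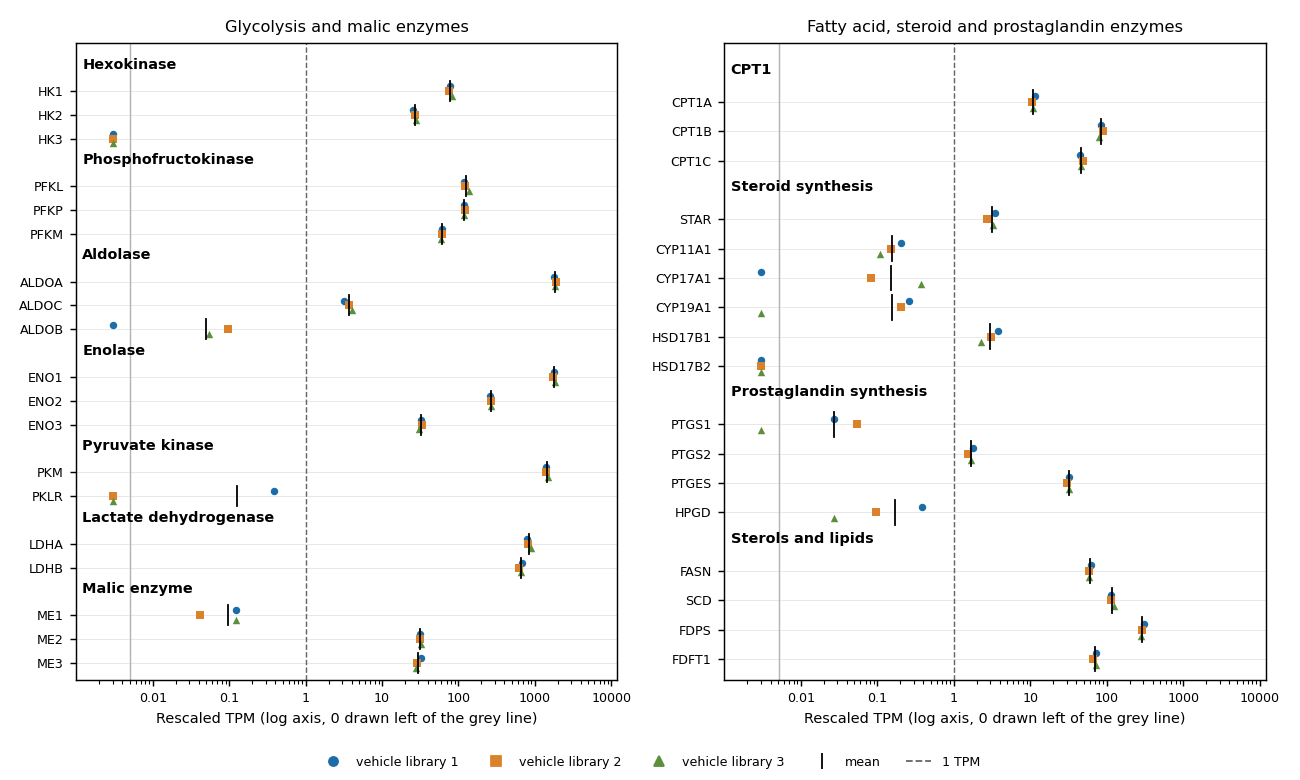
Rescaled TPM on a log axis for metabolic isozymes and for steroid, prostaglandin and lipid enzymes, 1 point per vehicle library with a bar at the mean; the dashed line is 1 TPM and 0 is drawn left of the grey line. ALDOA, ENO1 and PKM lie well above the other isozymes of their families, and CYP19A1, HSD17B2 and PTGS1 lie below 1 TPM.

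Position and lineage genes were read next. HOX genes, which mark a cell's place along the body axis, were detected for 31 of 39 members. HOXA genes summed to 406 ± 7.64 TPM with 11 of 11 detected, HOXB genes to 323 ± 9.54 with 8 of 10, HOXC genes to 87.0 ± 0.873 with 6 of 9 and HOXD genes to 70.1 ± 2.7 with 6 of 9 (all SD, n = 3). The genes of the uterine region were HOXA10 at 39.8, 44.4 and 44.3 TPM and HOXA11 at 18.6, 18.5 and 17.7, below HOXA5 (106 ± 5.04) and HOXA9 (97.2 ± 3.35). HOXA13, of the lower tract, was at 2.8 ± 0.153. Because no strand setting is stated, reads of antisense genes within these clusters cannot be separated from these values. Of 57 lineage factors 27 were detected and 17 had no count. GATA2, a factor of endometrial stroma, was at 51.0, 46.3 and 46.4 TPM and GATA6, which is known to be high in endometriotic stroma, at 27.6, 28.4 and 29.4. The ratio of GATA2 to GATA6 was 1.68 ± 0.145. GATA3, GATA4 and EMX2, a factor of the developing uterus, had no count.

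Most growth genes were detected. Of 32 genes of proliferation and cell cycle control 29 were detected (90.6%), against 61% of all protein-coding genes. Of these, 11 were above 100 TPM, a level that 8.83% of protein-coding genes reached. PCNA, the replication clamp, was at 539 ± 10.2, TOP2A at 307 ± 4.82, the mitotic cyclin CCNB1 at 301 ± 3.46 and the proliferation marker MKI67 at 52.8 ± 2.38 TPM (all SD, n = 3); TOP2A and CCNB1 overlapped. CDKN2A, which encodes the inhibitor p16 and the p53 activator ARF, was at 479, 479 and 442 TPM, 34.1 ± 2.09 times its neighbour CDKN2B. Of the D cyclins, which p16 keeps from their kinases, CCND3 was at 48.8, 49.1 and 49.6 TPM, CCND1 at 0.343, 0.315 and 0.123, and CCND2 had no count. TERT, the telomerase subunit, was at 4 ± 0.191.

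**Figure D5:**
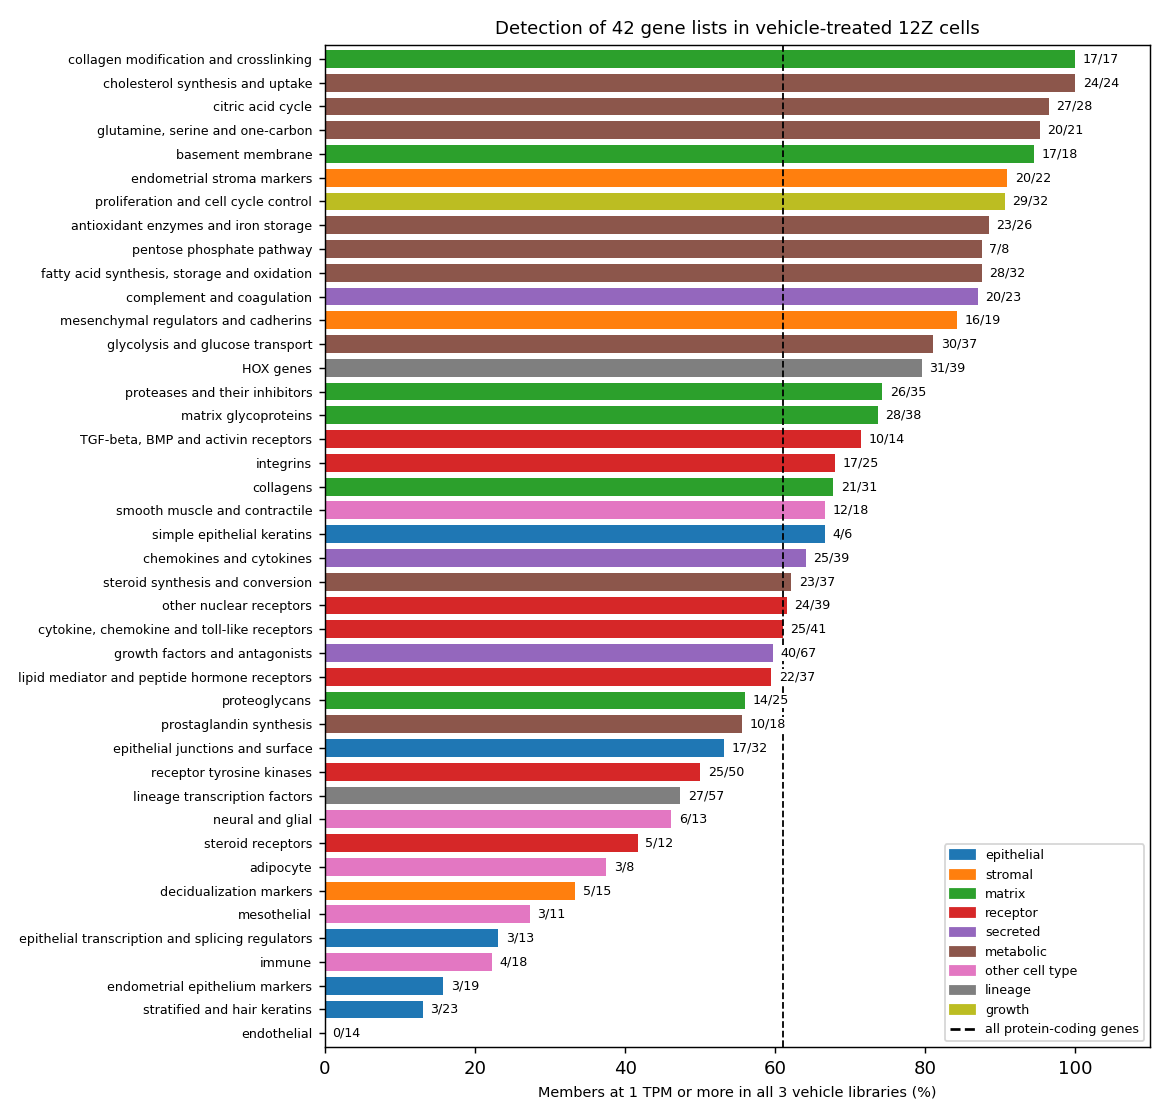
Share of members at 1 TPM or more in all 3 vehicle libraries for each gene list other than the 6 markers, with detected and total members beside each bar, coloured by role; the dashed line is the 61% of all protein-coding genes. Collagen modification and cholesterol genes reach 100%, endometrial stroma markers 90.9%, endometrial epithelium markers 15.8% and endothelial genes 0. The lists were chosen with earlier results of these data known, and the stroma list includes VIM, LUM, CXCL12 and THY1.

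Read over all roles, 688 of the 1061 distinct list genes that matched were detected and 119 had no count in any library, a state that 19% of protein-coding genes shared. By role, 30 of 93 epithelial genes were detected with a median of 0.164 TPM, 23 of 36 stromal genes with a median of 10.7 TPM, 117 of 157 matrix genes with a median of 31.3 TPM and 192 of 231 metabolic genes with a median of 36.9 TPM, against 61% and 6.32 TPM over all protein-coding genes. Each gene was counted under 1 role, so stromal markers that other lists also hold, such as VIM, LUM and FN1, are not among the 36. Among receptors 127 of 211 and among secreted factors 84 of 128 were detected, with medians of 3.60 and 6.52 TPM. The genes closest to the detection level were CNN1, LRRN4, IGFBP5 and NTRK3, whose lowest library was at 0.946 to 0.987 TPM, and FOXC2, CCL7, COL9A2 and ISL1, whose lowest library was at 1.04 to 1.10 TPM.

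The 20 most abundant protein-coding genes other than ribosomal protein genes included VIM, GAPDH, NQO1 and both ferritin chains, given above. TMSB4X, an actin-sequestering thymosin, was at 9137, 8986 and 9171 TPM and led the order, overlapping FTL. TMSB10 was at 8125 ± 266, B2M, the light chain of MHC class I, at 7427 ± 157, the calcium-binding S100A6 at 6791 ± 63.1, the cyclophilin PPIA at 6012 ± 33.5, ACTB at 5770 ± 82.5 and EEF1A1 at 4910 ± 205 (all SD, n = 3). The interferon-inducible IFITM3, at 3498 ± 172, and the galectin LGALS1, at 3419 ± 99.8, overlapped. TPT1, PFN1, HSPB1, PTMA, HMGN2 and TUBA1B lay from 3090 down to 2422 TPM. The values of TMSB4X and HMGN2 are uncertain by 316 and 136 TPM, the sums assigned to their pseudogenes. After these 20, the next genes outside the lists were ANXA2 (2307), ACTG1 (2254), the metallothionein MT2A (2242), MYL6 (2159) and UBB (2154), and S100A11, HNRNPA1, HLA-B, STMN1, ATP5MF, GNAS, YBX1, OAZ1, S100A10 and CFL1 followed at 2120 to 1479 TPM. The 100 most abundant genes held 26.5 ± 0.218% of the RNA (SD, n = 3), and the 128 protein-coding genes at 1000 TPM or more held 29.2%.

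Levels were close between libraries for most genes. The median coefficient of variation over detected protein-coding genes was 5.41%, and it fell from 9.96% among genes of 1 to 10 TPM to 2.17% among those at 1000 TPM or more. Among genes with a mean of 1 TPM or more, 1154 of 15678 (7.36%) had a highest library at least 1.5 times the lowest after adding 1 TPM to each. Of these 285 were protein-coding, 33 with a mean of 10 TPM or more. PLCB1, a phospholipase of receptor signalling, was at 6.52, 39.2 and 5.16 TPM, while its expected counts were 244, 294 and 290. Its effective length in library 2 was 447 bases against 2772 and 3604, so the TPM and the counts moved apart. The same held for ZDHHC2, at 7.32, 7.98 and 15.5 TPM on 451, 569 and 597 counts, and for HMSD, at 24.5, 49.2 and 33.6 TPM on 295, 284 and 312 counts. U2AF1, SMIM11 and ENSG00000273590, all on chromosome 21, also varied. U2AF1 and SMIM11 have near-identical copies on that chromosome, and their values are uncertain for that reason. SMIM11 was at 25.3, 23.1 and 3.71 TPM and ENSG00000273590 at 1.08, 5.09 and 24.8, so these genes moved in opposite directions. Whether reads were shared between SMIM11 and ENSG00000273590 was not tested. MAGED4, which has a near-identical copy on chromosome X, and ENSG00000285053 were the 2 others of the 8 most variable.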

How the data were processed

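RNA of 12Z cells was sequenced from 1.5 ug of total RNA per library with a TruSeq RNA kit, per the labels' protocols; poly(A) selection and strand are not stated. STAR, RSEM 1.3.1 and GRCh38 were used, per the submitters' processing notes; for the STAR version, the annotation and any read filter, the answer is not given in the sources used here. The deposited expected counts are reads that RSEM estimated for each gene, per the file headers, and the deposited TPM values are abundances per transcript length with the same total in each library. The deposited effective lengths, per the file headers, served to check variable genes and to set the TPM that 3 counts give; deposited TPM is rounded to 2 decimals, so levels near 0 are coarse.

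The 3 vehicle libraries were taken by label. The 37 mitochondrially encoded genes were dropped, TPM was rescaled to 1000000, and mean and SD over libraries were computed (Python 3.11.15, pandas 2.3.3, numpy 2.4.6, scipy 1.17.1). With 1 group no test between groups was run. Symbols for 60419 of 60616 identifiers came from a gene name table, and coordinates and gene types for 58385 from GENCODE 29; promoter sequences came from RefSeq. Library pairs differed by a chi-square per degree of freedom of 3.52 to 4.05, so none was a duplicate, and their Spearman correlation over detected genes was 0.992 or more. The summary steps were tested on simulated data.

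Lists hold 1063 genes in 43 groups, of which 1061 matched. The members and lists were chosen with earlier results of these data known. Named genes were the 6 markers, fixed anchor genes of each list and its 4 highest other detected members, the 20 most abundant protein-coding genes other than ribosomal ones, the 15 next outside all lists, and the 8 most variable with a mean of 10 TPM or more. Members named beyond this rule, such as COL6A3, TIMP3, ME1, CPT1B, NR1H4, TNF, CXCR2, CCND3, IGF1 and FGFR2, were chosen after their values were seen, as were the 4 promoters printed. A few genes that the naming rule selects are not reported here.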

Additional observations from a re-analysis of the deposited data

How the results depend on the processing

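No paired analysis was possible because only vehicle libraries enter and no test between groups was run. Under every alternative run, including leaving out each library in turn, detected genes numbered 13338 to 16272 (14770 as reported), detected list members 644 to 725 (688) and genes of any type at 100 TPM or more 1262 to 2016 (1815), all within 1.5 times the reported counts. The share of the 100 most abundant genes, 26.5%, became 44.7% with mitochondrially encoded genes kept, 24.2% with full in place of effective length and 20.3% with the 20 most abundant genes left out before rescaling. It was 26.4 to 26.6% without 1 library. The number of variable genes, 1154, became 697 among genes with a mean of at least 10 counts, 1851 with a pseudocount of 0.1 TPM and 2534 with no filter on low values. It was 641 to 681 without 1 library, where the highest and lowest of fewer libraries are compared. Of the detection counts per list, 468 stayed within 1.5 times the reported value and 5 did not. Endothelial genes gave 2 at 0.5 TPM and 1 without replicate 1, mesothelial genes 6 at 0.5 TPM, endometrial epithelium markers 1 at 2 TPM and neural and glial genes 3 at 2 TPM. The settings without nuclear ribosomal RNA genes and without nuclear copies of mitochondrial genes were chosen after seeing the data. Depth limits what can be said below about 0.1 CPM, where a gene with no count may still be present.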
